A study of Mus musculus with 8 samples.

Results

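The genes described here are 6 cathepsins (Ctsb, Ctsd, Ctsl, Ctss, Ctsk and Ctsz), the lysosomal membrane proteins Lamp1, Lamp2 and Cd63, and the lysosomal acid lipase Lipa. They were taken by symbol, and all 10 were found among the 15283 genes of the bulk liver table and among the 22578 genes of the nucleus table. The livers came from Tgfbr1 MKO mice, which carry flox/flox alleles of Tgfbr1 together with LysMcre, and from control mice with the flox/flox alleles alone. All mice of both groups had been fed a MASH diet for 30 weeks, a model of metabolic dysfunction-associated steatohepatitis. Bulk RNA-seq of liver covered 3 MKO and 3 control libraries, and single-nucleus RNA-seq covered 1 MKO pool and 1 control pool, each of 3 livers. LysMcre expresses the recombinase from the Lyz2 locus, which is active in macrophages, monocytes and neutrophils, so hepatocytes and the other parenchymal cells of MKO livers are not its target. The labels give no age or sex for these mice.

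Lysosomes degrade material taken up by endocytosis, phagocytosis and autophagy, and cathepsins are their main proteases. Cysteine cathepsins are made as inactive precursors that are activated in the acid lumen, and cystatins restrain those that escape. LAMP proteins form most of the coat on the inner face of the lysosomal membrane, and acid lipase frees cholesterol and fatty acids from lipoprotein lipids. In liver, hepatocytes use lysosomes for autophagy and protein turnover, while Kupffer cells and recruited macrophages use them to digest engulfed cells, lipids and antigens. TFEB, TFE3 and MITF, related transcription factors, bind a CACGTG-containing element that is common in lysosomal gene promoters.

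The promoters of 9 of the 10 genes were in the RefSeq table for GRCm38.p6, the assembly also called mm10; Ctsb was not matched. Each window holds 250 bases before and 50 after the annotated start. The motifs were chosen with the expression results known, and both strands were searched. The following 3 are shown because Ctss was the gene that changed in bulk liver, while Ctsd and Lamp1 are classical lysosomal genes whose bulk levels did not pass the test. Capitals mark the core of an interferon-stimulated element (GAAA, any 2 bases, GAAA) and GAGGAAGT (the core bound by the myeloid factor PU.1, here on the opposite strand) in Ctss, and CACGTG with any TCACGTGA that contains it in Ctsd and Lamp1. The first capitals of Lamp1 are a match to the interferon-stimulated core on the opposite strand. The Ctss window lies at chr3:95526536-95526835 on the + strand, that of Ctsd at chr7:142387778-142388077 on the - strand, and that of Lamp1 at chr8:13158911-13159210 on the + strand.
Ctss: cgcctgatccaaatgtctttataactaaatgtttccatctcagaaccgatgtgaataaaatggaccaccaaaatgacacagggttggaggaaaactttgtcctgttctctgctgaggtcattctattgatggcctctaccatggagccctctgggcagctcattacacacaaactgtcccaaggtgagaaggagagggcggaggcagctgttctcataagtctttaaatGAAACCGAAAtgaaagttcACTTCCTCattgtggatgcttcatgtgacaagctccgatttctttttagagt
Ctsd: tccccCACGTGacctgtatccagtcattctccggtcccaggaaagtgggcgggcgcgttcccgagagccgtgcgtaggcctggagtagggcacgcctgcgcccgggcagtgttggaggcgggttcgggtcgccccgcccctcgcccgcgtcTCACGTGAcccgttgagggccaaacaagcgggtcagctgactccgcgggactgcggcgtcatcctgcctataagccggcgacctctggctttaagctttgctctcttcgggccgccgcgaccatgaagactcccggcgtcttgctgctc
Lamp1: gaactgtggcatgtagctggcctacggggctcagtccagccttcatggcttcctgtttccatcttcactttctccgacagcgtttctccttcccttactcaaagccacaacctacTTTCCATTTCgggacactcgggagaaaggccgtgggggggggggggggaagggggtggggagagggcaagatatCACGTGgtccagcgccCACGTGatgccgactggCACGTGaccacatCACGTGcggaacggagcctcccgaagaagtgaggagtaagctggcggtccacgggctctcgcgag

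CACGTG was present in the windows of Ctsd, Ctsl and Lamp1, 3 of the 9 members matched, and in 7.15% of 32851 promoter windows of the same length. The Ctsl window (chr13:64370471-64370770) and the Cd63 window (chr10:128909095-128909394) lay wholly inside the gene spans given below. They may therefore not be the promoters at the outer starts of these genes, which limits the Ctsl match. Lamp1 held 4 copies, a number reached by 8 of those windows (0.0244%), and Ctsd held 2, as did 0.594% of windows at that number or above. The longer TCACGTGA, which overlaps CACGTG, was found in Ctsd alone among the members and in 0.974% of windows. The full palindrome, in which GT precedes and AC follows CACGTG, was in none of the 9 and in 0.326% of windows. GAGGAAGT was found in Ctss among the members (3.20% of windows), and the interferon-stimulated core in Ctss and Lamp1 (3.44% of windows). These matches describe letters in a window and do not show binding.

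The bulk libraries held 17448117 to 23986319 recovered reads. The first principal component (36.4% of the variance) separated the genotypes, and on the second (20.8%) MKO 1 scored 48.5 and the remaining libraries -23.0 to 4.67. The targeted gene Tgfbr1 differed in bulk liver by -0.13 ± 0.16 on the log2 scale (SE), with an adjusted p of 0.816 by limma, and its mean in macrophage-like nuclei was 4.87 in the MKO pool and 13.5 in the control pool. The labels number the replicates without tying them to animals, and the p-values then cover only library-to-library spread, which may be technical. In bulk tissue, fewer cells of a type and less RNA per cell cannot be told apart.

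Cathepsin S was the member that changed in bulk liver. Ctss encodes a cysteine protease of antigen-presenting cells that trims the invariant chain before peptides are loaded on MHC class II (chromosome 3, 95526786 to 95556403, + strand, GRCm38). Its normalised read count was 1631, 2740 and 2732 in MKO 1 to 3, against 1182, 1106 and 834 in control 1 to 3. Every MKO library lay above every control library, and MKO 1 was the lowest of its group. The means were 2368 ± 638 in MKO libraries and 1041 ± 183 in control libraries (SD, n = 3 each), 2.27-fold higher. The log2 fold change on the log2(value + 1) scale was 1.16 ± 0.22 (SE, limma adjusted p = 0.0268). The call was lost without MKO 2 (adjusted p = 0.120), MKO 3 (0.114), control 2 (0.0856) or control 3 (0.0890), with log2 fold changes from 1.01 to 1.21, and was kept without MKO 1 (1.41, 0.00847) or control 1 (1.26, 0.0439). The authors' deposited table gives Ctss a log2 fold change of 1.19.

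**Figure D1:**
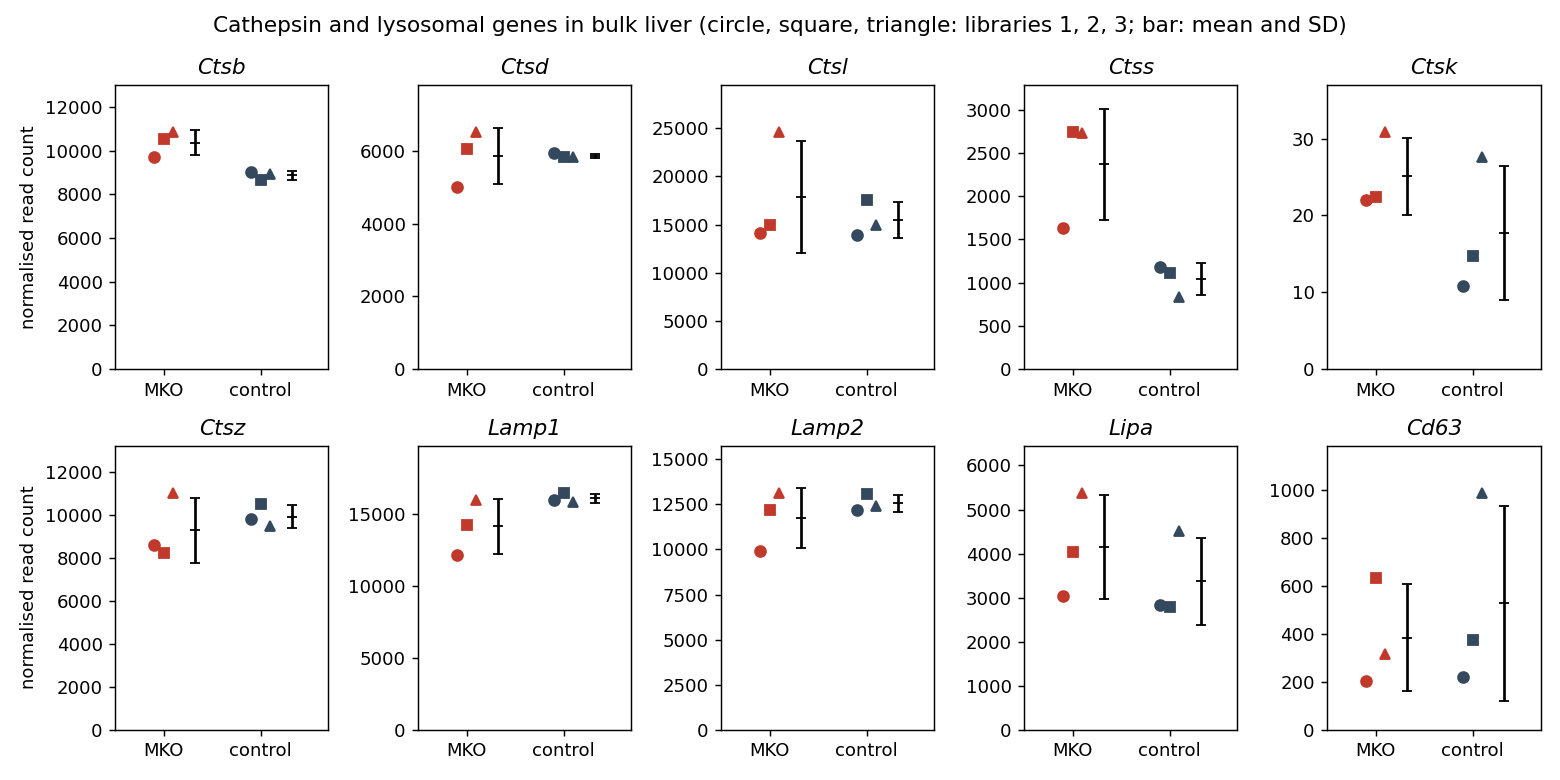
Normalised read counts (y axis, from 0) of the 10 genes in the bulk libraries, MKO left and control right in each panel; points are libraries, and the bar beside them is the mean with its SD. The Ctss points of the MKO libraries (1631 to 2740) lie above those of the control libraries (834 to 1182), while the points of 8 of the 10 genes overlap.

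Of the 10 members, 1 rose and 0 fell by limma at an adjusted p under 0.05, where 3.05% of the 15249 genes tested were called (2.96% higher and 0.0853% lower in MKO libraries). All 10 passed the filter on low values. edgeR and DESeq2 likewise called 1 member. The median log2 fold change of the members was 0.08, beside -0.02 for all genes tested, with 5 members positive and 5 negative. The genotypes did not overlap in 2 members, Ctss and Ctsb, where 19.4% of all genes had values that did not overlap.

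**Figure D2:**
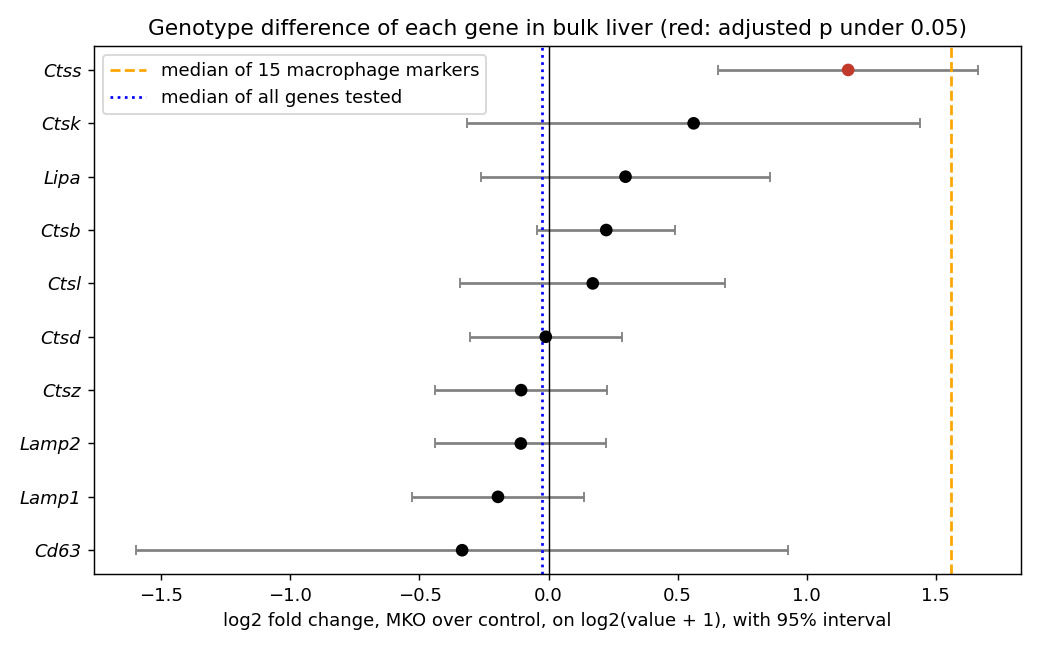
Log2 fold change of each gene in bulk liver, MKO over control, on the log2(value + 1) scale (x axis), with 95% intervals from limma; the dashed line is the median of 15 macrophage markers (1.56) and the dotted line that of all genes tested (-0.02). The interval of Ctss (0.66 to 1.67) lies above 0 and includes the macrophage marker median, and those of the other 9 genes include 0.

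Among the other cysteine cathepsins, Ctsb, an abundant endopeptidase with carboxypeptidase activity (chromosome 14, 63122462 to 63145923, + strand), had normalised counts of 9734, 10533 and 10846 in MKO libraries and 9017, 8652 and 8955 in control libraries. The groups did not overlap, but the difference was small and did not pass the test across all genes: the means were 10371 ± 574 in MKO and 8875 ± 195 in control libraries, a log2 fold change of 0.22 ± 0.12 (limma adjusted p = 0.511; 95% interval -0.04 to 0.49). The authors' deposited table has an adjusted p of 0.0724 for Ctsb.

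Ctsl, an endopeptidase with a broad lysosomal role (chromosome 13, 64359337 to 64370890, - strand), had normalised counts of 14122, 14996 and 24589 in MKO libraries, against 13874, 17586 and 14949 in control libraries. MKO 3 stood far above all other libraries, and MKO 1 and MKO 2 lay within the control range. The log2 fold change was 0.17 ± 0.22 (limma adjusted p = 0.831) and turned to -0.08 without MKO 3.

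Ctsz, a carboxypeptidase (chromosome 2, 174427493 to 174439039, - strand), had 8614, 8225 and 11020 reads in MKO libraries and 9789, 10506 and 9471 in control libraries. Its log2 fold change was -0.11 ± 0.15 (limma adjusted p = 0.840), and the groups overlapped. Ctsk, the collagen-degrading protease of osteoclasts (chromosome 3, 95499256 to 95509362, + strand), was the lowest member, at 22.0, 22.4 and 30.8 in MKO libraries and 10.9, 14.7 and 27.6 in control libraries. It lies 17423 bases from Ctss on the same chromosome and strand. Its log2 fold change of 0.56 ± 0.39 (limma adjusted p = 0.646) had a 95% interval of -0.32 to 1.44, so a rise as large as that of Ctss was not excluded at this depth.

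Ctsd, the aspartic protease of lysosomes (chromosome 7, 142375911 to 142388038, - strand), averaged 5863 ± 776 in MKO libraries and 5872 ± 55.9 in control libraries. The 3 MKO values of 5007, 6064 and 6519 spread to either side of the control values of 5935, 5830 and 5849. The log2 fold change was -0.01 ± 0.13 (limma adjusted p = 0.985; 95% interval -0.30 to 0.28).

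The membrane proteins gave values of the same kind. Lamp1 (chromosome 8, 13159161 to 13175338, + strand) stood at 12174, 14219 and 15999 in MKO libraries and at 15974, 16453 and 15838 in control libraries, with a log2 fold change of -0.20 ± 0.15 (limma adjusted p = 0.681). Lamp2, whose splice forms serve chaperone-mediated autophagy and lysosome fusion (chromosome X, 38401357 to 38456454, - strand), stood at 9900, 12174 and 13134 in MKO libraries and at 12173, 13080 and 12432 in control libraries (-0.11 ± 0.15, limma adjusted p = 0.837). In both genes MKO 1 was the lowest of the 6 libraries, as it was for Ctsd.

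Cd63, a tetraspanin of late endosomes and exosomes (chromosome 10, 128900989 to 128912822, + strand), varied most among the 10 genes, with a coefficient of variation of 66.7% over the 6 libraries, against 8.39% for Ctsd, the steadiest. It was read at 203, 633 and 314 in MKO libraries and at 219, 374 and 987 in control libraries. The log2 fold change of -0.33 ± 0.55 (limma adjusted p = 0.872) turned to 0.26 without control 3, the highest library. The summed value of 8 bile duct markers was also highest in control 3, at 3139, against 1254 to 1481 in MKO libraries and 1542 and 1624 in the other controls; its part in the Cd63 value was not tested. Lipa (chromosome 19, 34492318 to 34527474, - strand) stood at 3037, 4037 and 5375 in MKO libraries and at 2822, 2782 and 4515 in control libraries, a log2 fold change of 0.30 ± 0.25 (limma adjusted p = 0.712). Control 3 was again the highest of its group and lay within the MKO range.

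Per kilobase of annotated exon, the MKO means ranged from 6444 for Ctsz and 5282 for Lamp1 to 104 for Cd63 and 16.6 for Ctsk. Ctss stood at 1744 per kilobase in MKO libraries, beside 1714 for Ctsb, and at 766 in control libraries, beside 1467 for Ctsb. These levels use the union of all annotated exons, which understates genes with long rare isoforms.

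Markers of macrophages moved with the genotype in the same libraries. Of 15 macrophage markers 10 rose and 0 fell by limma, with a median log2 fold change of 1.56. Their summed value was 13567, 18967 and 21510 in MKO libraries and 9670, 8451 and 5618 in control libraries, so the groups did not overlap, and no marker was at 0. The sums of 8 Kupffer cell markers (3 rose; 7992 to 12013 in MKO and 1609 to 5861 in control libraries) and of 8 monocyte markers (2 rose and 1 fell; 443 to 739 in MKO and 304 to 350 in control libraries) did not overlap either. Lipid-associated macrophage markers went mostly the other way: 5 of 7 had negative log2 fold changes, with a median of -0.50. Of these 7, Trem2 fell (-2.20 ± 0.29, limma adjusted p = 0.00604) and Itgax rose (1.44 ± 0.21, limma adjusted p = 0.00899). Their sums overlapped, at 5440 to 5992 in MKO and 3994 to 6671 in control libraries. Lpl made up 48.9% of these sums and had a positive log2 fold change, 0.64, in the authors' deposited table. The summed dendritic cell markers, of which 3 of 7 rose, lay between 628 and 714 in MKO libraries and between 292 and 389 in control libraries. The summed T and NK cell markers, of which 2 of 10 rose, lay between 317 and 494 in MKO libraries and between 137 and 214 in control libraries. The summed B lineage markers overlapped, at 236 to 426 in MKO libraries and 156 to 487 in control libraries. Of 8 neutrophil markers 4 were measured, of which 1 rose. Their sums lay between 209 and 290 in MKO libraries and between 131 and 149 in control libraries, and Csf3r made up 61.6% of them.

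Set against the macrophage marker sum of its own library, Ctss was at 12.02%, 14.4% and 12.7% in MKO 1 to 3 and at 12.2%, 13.1% and 14.8% in control 1 to 3. The groups overlapped, and the means were 13.1% ± 1.25 in MKO and 13.4% ± 1.33 in control libraries (SD, n = 3 each). The difference of the mean log2 ratio was -0.04 (exact permutation test, two-sided, p = 0.7). Without Lyz2 in the sum it was -0.21 (exact p = 0.3). The share of Ctsd in the same sum was 36.9%, 32.0% and 30.3% in MKO libraries, below the 61.4%, 69.0% and 104% of control libraries.

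The same ratio was formed for all 10 genes. Its denominator, the marker sum, had a mean 2.28-fold higher in MKO libraries. A gene with a level bulk count, such as Ctsd, therefore comes out lower by this ratio without any change of its own. Ctsb, Ctsd, Ctsl, Ctsz, Lamp1, Lamp2 and Lipa were each lower relative to the markers in MKO libraries, by log2 differences from -1.39 for Lamp1 to -0.90 for Lipa. Each had an exact two-sided p of 0.1, the smallest that 3 against 3 allows, and 0.143 after adjustment over the 10 genes, so no such difference could pass 0.05. Ctsk and Cd63 had differences of -0.60 and -1.53 (exact p = 0.5 and 0.2).

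**Figure D3:**
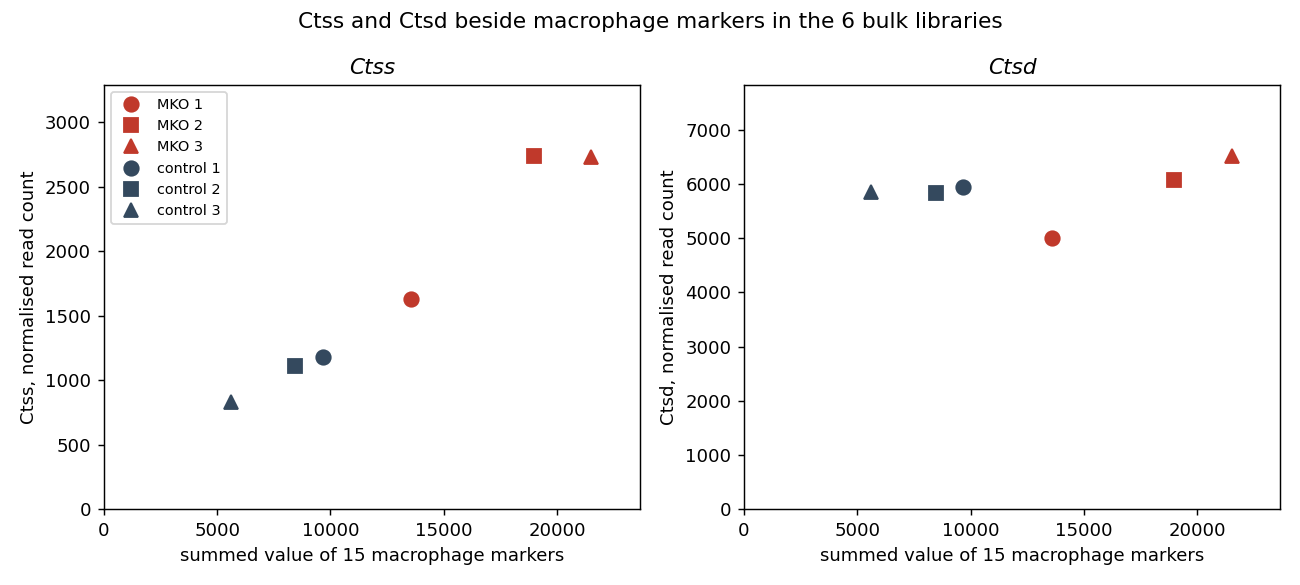
Normalised read count (y axis, from 0) of Ctss on the left and Ctsd on the right against the summed value of 15 macrophage markers (x axis, from 0); each point is a bulk library. The MKO points lie right of the control points in both panels; Ctss is higher there (1631 to 2740, against 834 to 1182), while Ctsd spans 5007 to 6519 in MKO libraries and 5830 to 5935 in control libraries.

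The lysosomal genes around the 10 members mostly did not pass the test. Of 18 other lysosomal membrane proteins 2 rose and 0 fell by limma. They were Laptm5, a transmembrane protein of haematopoietic lysosomes, at 1080 ± 167 in MKO and 376 ± 48.0 in control libraries (log2 fold change 1.52 ± 0.15, limma adjusted p = 0.00370), and Cd68, a LAMP-family glycoprotein of macrophages, at 424 ± 76.4 in MKO and 175 ± 39.5 in control libraries (1.28 ± 0.20, limma adjusted p = 0.0109). Laptm5 kept its call whichever library was left out, and Cd68 lost it without MKO 2 (0.0591), MKO 3 (0.0541) or control 2 (0.0542). The median of the 18 genes was -0.01, with 8 positive.

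In the remaining lists limma called 0 genes. That covers 8 other cathepsins (2 at an unadjusted p under 0.05, median 0.06), 4 cathepsin inhibitors (1, median 0.38), 34 other hydrolases (3, median 0.01), 16 subunits of the proton pump that acidifies lysosomes (1, median -0.06), 10 sorting genes (0, median -0.05) and 11 regulators of lysosomal genes (2, median -0.08). edgeR also called 0 in these lists, and DESeq2 on recovered reads called 1, the phospholipase Pla2g15. Its log2 fold change was 0.64 (DESeq2 adjusted p = 0.0363), against 0.65 ± 0.17 by limma (adjusted p = 0.115). The authors' deposited table has more of these genes at an adjusted p under 0.05. Pla2g15 (0.00868), Man2b1 (0.0297), Asah1 (0.0317) and Tfec (0.0251) were higher in MKO libraries there, and Rraga (0.0212) was lower. The most abundant member of each list had a log2 fold change near 0 or small: Ctsh 0.03, Psap, the precursor of sphingolipid activator proteins, 0.10, Atp6v0c -0.05, the mannose 6-phosphate receptor M6pr -0.02 and the kinase Mtor 0.02. Cst3, the secreted inhibitor cystatin C, was read at 4017, 4081 and 4697 in MKO libraries and at 3670, 3835 and 3077 in control libraries. Its groups did not overlap, but its log2 fold change of 0.28 ± 0.13 had a limma adjusted p of 0.447.

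The nucleus table gives a mean per gene for each of 13 clusters and each pool, scaled so that every column sums to 10000. With 1 pool per genotype there is no spread over samples, so neighbouring levels cannot be ranked beyond error, and no difference between pools was tested. A log2 ratio was formed only for genes past the 90th percentile of a cluster's larger values, with a pseudocount of 1/10 of it. The larger of the MKO and control values had to reach this floor, so a gene could pass through 1 pool alone. The direction of such a ratio was set by the floor. By the marker lists, clusters 0, 1 and 3 were hepatocyte-like, 2 macrophage-like, 4 and 9 endothelial-like (4 led by Stab2 and Clec4g, 9 by Vwf), 5 stellate-like, 6 bile duct-like, 7 T and NK-like, 8 B lineage-like, 11 plasmacytoid dendritic-like and 12 mesothelial-like. Cluster 10 was led by the division genes Top2a and Mki67 and also carried 12 of the 15 macrophage markers at 2-fold or more over the other clusters, so it was given no cell type.

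Ctsb, Ctsd, Ctss, Lamp1 and Lipa were highest in the macrophage-like cluster in both pools. The macrophage-like cluster held 34.9% of the summed cluster values of Ctss in the MKO pool and 45.3% in the control pool. Ctss stood at 7.91 in MKO and 7.87 in control macrophage-like nuclei, then at 4.53 and 3.11 in the B lineage-like cluster, 3.96 and 2.90 in cluster 10 and 3.35 and 2.80 in the plasmacytoid dendritic-like cluster. In T and NK-like nuclei it was 0.939 in MKO and 0.367 in control, and in the hepatocyte-like clusters it was 0.0580 to 0.0873 in MKO and 0.0147 to 0.0157 in control. The genes most like Ctss over the 26 columns were H2-Eb1 (Pearson r = 0.96), H2-Aa (0.96) and Cybb (0.96), of 6755 genes reaching a value of 1.

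**Figure D4:**
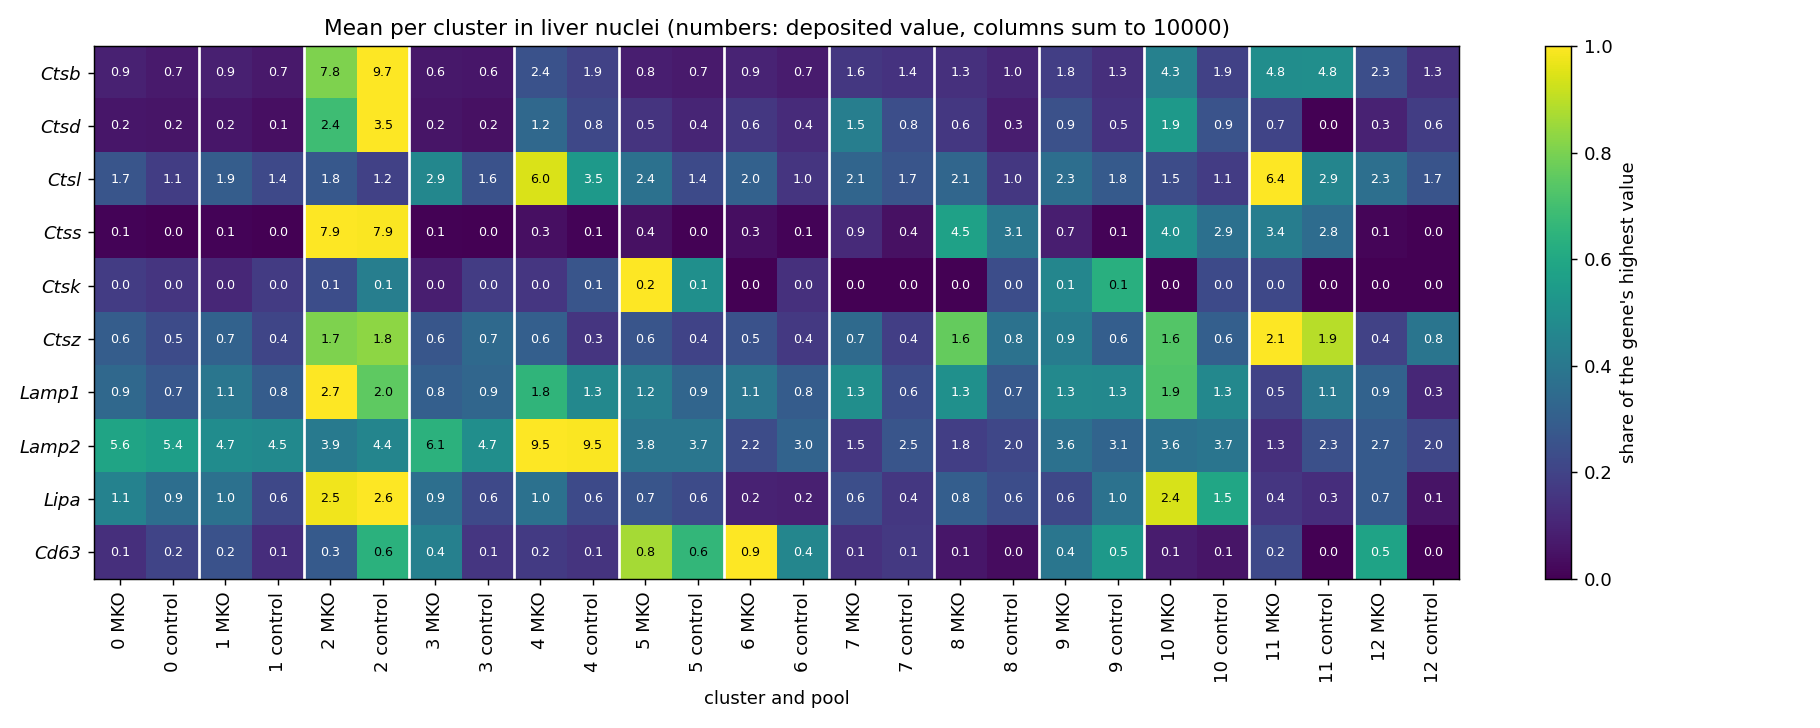
Deposited mean (number in each cell) of the 10 genes in 13 clusters of liver nuclei, the MKO pool left of the control pool in each pair; colour is the share of the gene's own highest value. Ctsb, Ctsd, Ctss, Lamp1 and Lipa peak in cluster 2 (macrophage-like), Lamp2 peaks in cluster 4 (endothelial-like), and the MKO values of Cd63 peak in clusters 5 and 6.

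The other members were spread differently. Ctsb was 7.81 in MKO and 9.71 in control macrophage-like nuclei, next 4.78 and 4.80 in the plasmacytoid dendritic-like cluster, and 0.630 to 0.895 in MKO and 0.576 to 0.701 in control hepatocyte-like clusters. Ctsz was highest in the plasmacytoid dendritic-like cluster, at 2.13 in MKO and 1.91 in control, with 1.72 and 1.77 in the macrophage-like cluster. Lipa was 2.53 in MKO and 2.58 in control macrophage-like nuclei, and 2.43 and 1.53 in cluster 10.

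Lamp2 and Ctsl were broad. Lamp2 was highest in the endothelial-like cluster 4 (9.55 in MKO, 9.50 in control) and stood at 4.66 to 6.12 in MKO and 4.52 to 5.36 in control hepatocyte-like nuclei, above the macrophage-like values of 3.93 and 4.35. Ctsl was 6.38 in MKO and 2.90 in control plasmacytoid dendritic-like nuclei, 6.02 and 3.46 in endothelial-like cluster 4, and only 1.77 and 1.22 in the macrophage-like cluster. Cd63 was below 1 everywhere, at 0.889 in MKO and 0.407 in control bile duct-like nuclei, 0.769 and 0.588 in stellate-like nuclei and 0.2503 and 0.566 in macrophage-like nuclei. Ctsk was at most 0.211 in MKO, in the stellate-like cluster, and 0.133 in control, in endothelial-like cluster 9.

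Likeness among the members varied widely across the 26 columns. The Pearson correlation of log2(value + 0.1) was 0.80 for Ctss with Ctsz, 0.77 for Ctsb with Ctss, 0.75 for Lamp1 with Lipa, 0.59 for Ctsb with Ctsd, 0.51 for Ctsd with Ctss and 0.29 for Ctsd with Ctsz, and was -0.39 for Ctsz with Lamp2. The 2 pools share clusters, so these 26 points are not independent, and the values are descriptions. The gene most like Ctsb was Usp12 (0.92), that of Ctsd was Smpdl3a (0.91), that of Ctsz was Pld4 (0.89), that of Lamp2 was B430010I23Rik (0.85) and that of Lipa was Sat1 (0.83). Lower likeness was found for Lamp1 (Top1, 0.81), Cd63 (Tmem176a, 0.80), Ctsk (Ednrb, 0.79) and Ctsl (Bst2, 0.73).

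Within macrophage-like nuclei 8 of the 10 members reached the floor of 1.44, and 0 differed between pools by 2-fold or more, where 5.04% of 1905 genes were 2-fold or more higher and 4.72% were lower in MKO. Ctss had a log2 ratio of 0.01, Lipa -0.03 and Ctsz -0.04. Ctsd was 2.39 in MKO and 3.47 in control (log2 ratio -0.51), Ctsb had a ratio of -0.31 and Lamp2 of -0.14. Ctsl had a ratio of 0.49, and Lamp1, at 2.69 in MKO and 2.02 in control, one of 0.39. The median of the 8 was -0.04, beside -0.07 for all 1905 genes.

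**Figure D5:**
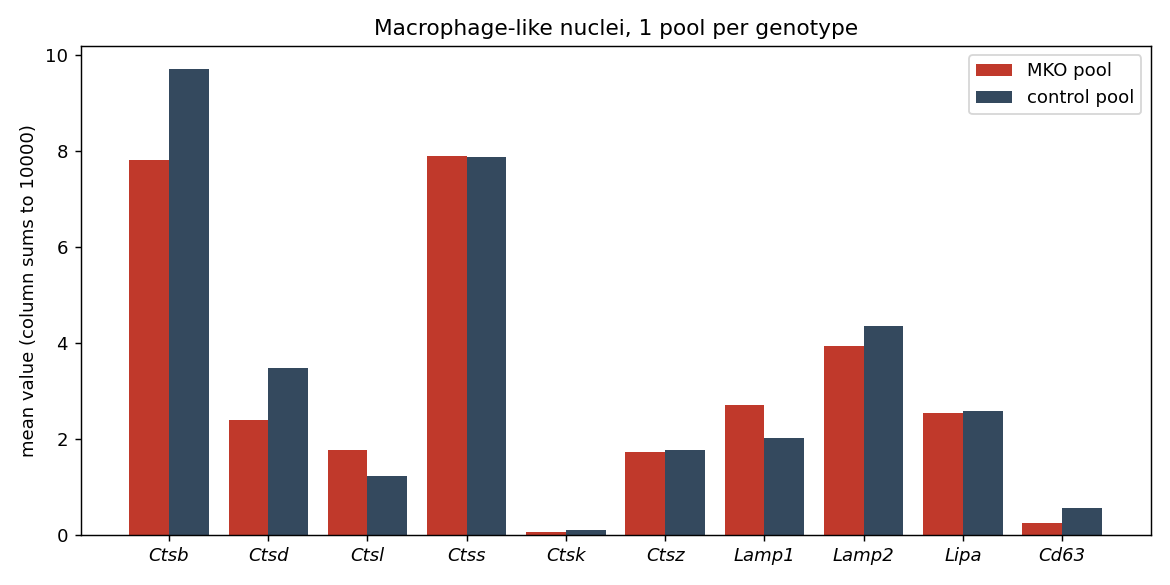
Deposited mean (y axis, from 0) of the 10 genes in the macrophage-like cluster, the MKO pool (red) left of the control pool (dark); there is 1 pool per genotype, so no error bar. Ctss is level (7.91 and 7.87), Ctsb (7.81 and 9.71) and Ctsd (2.39 and 3.47) are lower in the MKO pool, and Ctsl (1.77 and 1.22) is higher.

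A few other lysosomal genes were past 2-fold in these nuclei, though 0 of 3 other cathepsins and 0 of 5 other membrane proteins past the floor were. Among proton pump subunits, 7 of 16 reached the floor, 2 were 2-fold or more lower in the MKO pool and their median log2 ratio was -0.40. Atp6v0d2, a subunit of osteoclasts and macrophages, was 0.730 in MKO and 2.69 in control (-1.70), and Atp6v0a1 was 1.04 and 3.15 (-1.47). Of 34 other hydrolases 11 reached the floor, among them Acp5, the tartrate-resistant acid phosphatase, at 1.45 in MKO and 0.430 in control (1.48). Atp6v0d2 and Atp6v0a1 reached the floor in the control pool alone, and Acp5 in the MKO pool alone.

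Mitf was 5.98 in MKO and 12.2 in control macrophage-like nuclei (-1.01), and the 4 regulators past the floor all had negative ratios (median -0.44), where 43.2% of all genes past the floor had positive ones. Not all of these regulators reached the floor in both pools. The sum of 7 lipid-associated macrophage markers was also lower in the MKO pool in these nuclei, at 6.26 in MKO and 13.8 in control, with none at 0. Among them Gpnmb was 1.18 in MKO and 6.14 in control (-2.24), and Trem2, under the floor, was 0.0829 and 0.809. The part of this marker difference in the lower Mitf, Atp6v0d2, Atp6v0a1 and Ctsd values was not tested. Cst3 was 4.93 in MKO and 1.74 in control (1.43). Cd68 lay under the floor, at 0.870 in MKO and 0.792 in control, and Laptm5 had a ratio of 0.21. In bulk liver, Acp5 (log2 fold change 0.08), Atp6v0d2 (0.09), Atp6v0a1 (0.13) and Mitf (0.10) did not pass limma's test, with adjusted p from 0.709 to 0.950. Lyz2, the locus that carries the Cre, was 2.65 in MKO and 6.58 in control macrophage-like nuclei (-1.27).

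Across the clusters, the macrophage-like one included, Ctsl was higher in the MKO pool in 13 of 13. It reached the floor in 12, with log2 ratios from 0.28 in T and NK-like to 1.08 in plasmacytoid dendritic-like nuclei (median 0.59). In clusters 0, 2, 6, 8 and 12 Ctsl reached the floor in the MKO pool alone, so its ratio there could only be positive. Of 514 genes past the floor in at least 12 clusters, 5.45% were higher in MKO in each of them. The sum of 10 hepatocyte markers was also higher in the MKO pool in 12 of 13 clusters, for example at 77.0 in MKO and 54.4 in control macrophage-like nuclei and at 98.6 and 59.5 in endothelial-like cluster 4. It was lower in hepatocyte-like cluster 1 (198 in MKO, 214 in control), and its part in the Ctsl values was not tested. The single markers did not move together in macrophage-like nuclei. Alb was 39.6 in MKO and 27.3 in control there, and Apoa1, Ttr and Serpina1c were also higher in MKO. Apob (2.33 in MKO, 2.76 in control), Tat (0.399 and 0.945), Cps1, Cyp2e1, Hnf4a and Pck1 were lower in MKO. In the hepatocyte-like clusters 0, 1 and 3 the Ctsl values were 1.67, 1.89 and 2.94 in MKO and 1.15, 1.42 and 1.60 in control. The bulk Ctsl values of MKO 1 and MKO 2 did not lie above the control range.

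Ctss was likewise higher in the MKO pool in 13 of 13 clusters, though it reached the floor in only 4. In the macrophage-like cluster, among those 4, its values were level (7.91 in MKO, 7.87 in control). The share of 5.45% covers genes past the floor in at least 12 clusters. The count for Ctss was made without the floor, and no share of all genes was computed that way, so that count is a description only. The mean of Ctss over the hepatocyte-like clusters was 0.90% of the macrophage-like value in the MKO pool and 0.19% in the control pool. The summed macrophage markers were also higher in MKO in all 13 clusters, and their hepatocyte-like mean was 1.83% of the macrophage-like sum in MKO and 1.67% in control. The summed Kupffer cell markers of hepatocyte-like clusters 0, 1 and 3 were 0.224, 0.217 and 0.177 in MKO. In control they were 0.0467, 0.0628 and 0.0420, beside macrophage-like sums of 32.3 in MKO and 27.3 in control. Whether RNA from other cells contributes to the low Ctss values was not tested. In endothelial-like cluster 9 Ctss was 0.664 in MKO and 0.0687 in control, and the macrophage marker sum was 2.82 and 0.995.

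In cluster 10 the Ctsb value was 4.28 in MKO and 1.88 in control (log2 ratio 1.11), past 2-fold, as were 11.1% of 1480 genes there. Lipa in the same cluster was 2.43 and 1.53 (0.60). Both genes reached the cluster 10 floor of 2.01 in the MKO pool alone, so these ratios could only be positive. The macrophage marker sum of cluster 10 was 44.1 in MKO and 12.9 in control, and its part in the Ctsb difference was not tested. Over all 13 clusters the members reached the floor in 42 pairs of gene and cluster, of which 2 were past 2-fold, against 7.22% of all such pairs. The other was Ctsl in the plasmacytoid dendritic-like cluster, where 5.19% of 1233 genes were that much higher in MKO.

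Reads of some members may be shared with overlapping genes, because no source used here gives the strand setting of the counting. In the annotation Ctsb overlaps Fdft1, Ctsd the gene model Gm49369, Ctsl the antisense Gm47123, Ctsz Nelfcd and Lamp1 Grtp1. Windows of 50 bases of the longest transcript were also looked for in other genes. Of those of Ctsd 36.6% occur in Gm49369, of Cd63 36.5% in the pseudogene Cd63-ps, of Ctsl 28.1% in many other genes, of Ctsb 15.4% in Fdft1 and of Lamp1 7.11% in Grtp1. No window of the Ctss, Ctsk, Ctsz, Lamp2 or Lipa transcript was found in another gene.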

How the data were processed

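Bulk liver RNA was measured in 3 MKO and 3 control libraries and liver nuclei in 1 pool per genotype. The mm10 build and the tools STAR, RSEM 1.3.3, Cell Ranger, Seurat 4.0.1, FastQC and DESeq2 are named, without roles or settings, per the submitters' processing notes. For bulk liver the authors deposited a signal, the count of each gene after division by a size factor of its library. Whole reads were recovered for 100% of values (tolerance 0.01), and edgeR called 482 genes and DESeq2 684 on them. For nuclei the authors deposited another signal, a mean per cluster; no source used here gives the number of nuclei, the averaging or the handling of doublets, so depth is unknown. The log2 fold changes and p-values that the authors deposited come from their own comparison and are quoted only where named.

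The bulk test was limma-trend (limma 3.58.1, R 4.3.3) on log2(value + 1) over 15249 genes with a mean of at least 1, with Benjamini-Hochberg adjustment over all of them. That scale understates changes of low genes. edgeR 4.0.16 and DESeq2 1.42.0 on recovered reads, other scalings, pseudocounts and filters, a replicate block and leaving out libraries were alternatives, and the scripts were tested on simulated data. Within a genotype, chi-square values divided by their degrees of freedom were 28.1 to 73.1 between libraries, so none was counted as a duplicate. Members and gene lists were chosen with earlier results of these data known. Named genes were all members, the up to 4 called genes with the smallest p or else the most abundant gene of each other list, and in macrophage-like nuclei up to 3 genes per list past 2-fold; 1 gene under this rule is not reported here. The 3 genes most like each member were taken over all 26 columns, and the first is named, with 3 for Ctss. Pla2g15, Man2b1, Asah1, Tfec, Rraga, Lyz2, Gpnmb, Trem2, Itgax, Lpl and Csf3r lie outside this rule and were chosen after their values were seen. The same holds for the nucleus values of Cd68, Laptm5 and the single hepatocyte markers. Markers counted toward naming a cluster where at least 3 were 2-fold or more above the mean of the other clusters.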

Additional observations from a re-analysis of the deposited data

How the results depend on the processing

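The bulk count of 465 called genes and the single called member were within 1.5 times under edgeR, DESeq2, both scalings, the pseudocount of 5, both filters and the replicate block, which called 408 genes and 1 member. Leaving out 1 library gave 180 to 441 genes, 0 to 1 members and 1 to 3 genes of the other lysosomal lists. Dropping MKO 1 together with control 3 was added once the data had been seen: 399 genes and 1 member were called (Ctss 1.26, limma adjusted p = 0.00786). Ctss had an adjusted p from 1.1e-05 (DESeq2) to 0.120 over its alternatives. Signs turned in genes that were never called. Ctsd was 0.0058 with DESeq2, 0.10 with quantile normalization, 0.096 without both of those libraries and -0.092 to 0.099 with 1 library left out (positive without MKO 1). Ctsl spanned -0.081 to 0.32, negative without MKO 3. Lamp2 spanned -0.19 to 0.010, positive without MKO 1, and was 0.0030 without both. Cd63 spanned -0.82 to 0.26, positive without MKO 1 (0.043) or control 3, and was 0.64 without both. Tgfbr1 spanned -0.27 to 0.035, positive without MKO 1, and was 0.038 without both. With 1 library left out, the log2 difference of Ctss relative to the macrophage marker sum spanned -0.11 to 0.041, positive without MKO 1 (0.022) or control 3. Without Lyz2 in the sum, and with all libraries, that difference was -0.21. For Ctsk the span with 1 library left out was -1.06 to 0.0027, positive without control 3. The cause of these turns was not tested beyond the library left out. In macrophage-like nuclei the count of members past 2-fold stayed at 0 under all 4 alternatives for the pseudocount, floor and centring.

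Same-numbered libraries of the genotypes had correlations of their deviations of 0.06, -0.03 and -0.11. These values gave no sign that the numbers pair the samples, but so few libraries cannot exclude it. The replicate block left the Ctss call in place (adjusted p = 0.0346). Spread between libraries was widest for Cd63, and the nucleus means have no known depth.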
